A study of Homo sapiens with 6 samples.

Results

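Messenger RNA levels of the SR proteins, the SR-related matrix proteins and the heterogeneous nuclear ribonucleoproteins (hnRNPs) were examined in SW1990 cells treated with a DOT1L inhibitor and in control cells. Members were the protein-coding genes of the deposited count table whose symbol begins with HNRNP, begins with SRSF and a digit, or is one of SRRM1 to SRRM5. The rule found 44 genes of 58735, made up of 27 HNRNP, 12 SRSF and 5 SRRM genes. A minimum-count filter kept 15496 genes for testing, among them 36 members: 22 HNRNP, 11 SRSF and 3 SRRM genes.

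SW1990 is an established human pancreatic ductal adenocarcinoma cell line. The 3 EPZ5676 libraries came from cells given 5 µM of EPZ-5676, a small-molecule inhibitor of the histone H3 methyltransferase DOT1L. The 3 control libraries are described as untreated in the sample characteristics and as given an equal volume of the solvent DMSO in the treatment protocol. How long the cells were treated is not stated in the labels. Separate cultures for the replicates are not stated either, so the p-values reflect only the spread among these 6 samples, some or all of which may be technical. The EPZ5676 libraries held 33970420, 34980138 and 39749648 assigned reads, and the control libraries 38132352, 35042563 and 35568711. The keratins and other epithelial markers fixed for the cell type summed to 6654 to 8476 CPM (read counts scaled to a common library size) in EPZ5676 libraries and 5455 to 6265 CPM in controls, with 3 of 7 tested higher and none lower. CDH1, the epithelial cadherin, had 0 counts in all 6 libraries, and the markers EPCAM (1.08 CPM with EPZ5676 and 1.89 CPM in controls) and KRT19 (0.385 and 0.430 CPM) were near 0, while KRT7, KRT8 and KRT18 were abundant. Leukocyte markers summed to 3.85 to 5.82 CPM with EPZ5676 and 2.29 to 10.3 CPM in controls. Endothelial markers summed to 1.37 to 3.25 and 1.63 to 3.18 CPM, and the 6 fibroblast markers to 93.9 to 100 and 83.9 to 93.8 CPM. Of the fibroblast markers, 5 were tested, with 1 higher and 2 lower. Beside these calls, 15.0% of all genes tested were higher and 18.7% lower. With trends in GC content and length removed, 0 epithelial and 0 fibroblast markers were called. A falling level in bulk RNA does not tell fewer cells of a kind apart from less RNA per cell.

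SR proteins carry one or more RNA-recognition domains and a tail rich in arginine and serine, and they mostly promote the use of exons to which they bind. The hnRNPs coat nascent transcripts and often act against exon inclusion, so that the balance of the 2 families is a textbook determinant of alternative splicing. SRRM1 and SRRM2 are large coactivators and scaffolds of nuclear speckles, and SRRM3 and SRRM4 drive the inclusion of very short exons in neurons. Many genes of these families hold poison exons, whose inclusion sends the transcript to nonsense-mediated decay and lets the protein limit its own level. In the annotation used, 26 of the 36 tested members (72.2%) had at least 1 transcript marked for nonsense-mediated decay, against 42.8% of the tested protein-coding genes, and all 11 tested SRSF genes had one. Counts per gene add such transcripts to the coding ones.

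Promoter sequences were matched by symbol to RefSeq (GRCh38.p14) for 33 of the 36 tested members, with the first entry used where a gene had several. The 250 bases before the start had a median GC content of 65.6% in the members and 58.0% over all 35116 promoters of the table, with a median of 26 and 11 CpG dinucleotides. That background took in every entry, whether or not its gene was expressed in these cells, so it is not a set like the members. Of 4 motifs searched on both strands, the GC box (GGGCGG) was in 63.6% of members and 42.6% of all promoters, the CCAAT box (CCAAT) in 48.5% and 32.0%, and the TATA box (TATAAA) in 15.2% and 10.7%. The cyclic AMP response element (TGACGTCA) was in 0 of the 33 and in 1.65% of all promoters. A match is a description of the letters, not of a bound site.

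The 250 bases before the start are shown for 4 genes: SRRM3, the member that rose, SRSF3 and HNRNPU, which fell, and HNRNPA0, which stood above other genes of its base composition. They are written 5′ to 3′ along the gene, with GC, CCAAT and TATA boxes on either strand in capitals. The SRRM3 window (chr7:76201646-76201895, plus strand) was 79.2% GC with 3 GC boxes. The SRSF3 window (chr6:36594112-36594361, plus strand) was 62.4% GC with 2 CCAAT boxes and 1 TATA box. The HNRNPU window (chr1:244864544-244864793, minus strand) was 66.0% GC with 3 GC boxes and 2 CCAAT matches that overlap each other. The HNRNPA0 window (chr5:137754364-137754613, minus strand) was 70.4% GC with 1 GC box and 1 CCAAT box.
SRRM3: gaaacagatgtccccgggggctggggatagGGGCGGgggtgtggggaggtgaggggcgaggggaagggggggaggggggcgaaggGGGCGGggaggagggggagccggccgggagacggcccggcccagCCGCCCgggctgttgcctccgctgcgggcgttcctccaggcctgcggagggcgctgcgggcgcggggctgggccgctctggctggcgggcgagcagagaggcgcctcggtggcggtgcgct
SRSF3: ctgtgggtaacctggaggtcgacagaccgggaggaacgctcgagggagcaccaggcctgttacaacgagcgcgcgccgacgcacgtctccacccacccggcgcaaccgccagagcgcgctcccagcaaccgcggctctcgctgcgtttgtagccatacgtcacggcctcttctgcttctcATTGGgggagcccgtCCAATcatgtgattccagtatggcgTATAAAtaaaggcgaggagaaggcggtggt
HNRNPU: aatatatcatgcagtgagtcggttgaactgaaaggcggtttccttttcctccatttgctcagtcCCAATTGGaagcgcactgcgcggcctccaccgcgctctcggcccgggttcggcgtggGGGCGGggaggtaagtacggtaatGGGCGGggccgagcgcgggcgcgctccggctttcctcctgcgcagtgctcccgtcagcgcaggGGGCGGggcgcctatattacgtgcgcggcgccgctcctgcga
HNRNPA0: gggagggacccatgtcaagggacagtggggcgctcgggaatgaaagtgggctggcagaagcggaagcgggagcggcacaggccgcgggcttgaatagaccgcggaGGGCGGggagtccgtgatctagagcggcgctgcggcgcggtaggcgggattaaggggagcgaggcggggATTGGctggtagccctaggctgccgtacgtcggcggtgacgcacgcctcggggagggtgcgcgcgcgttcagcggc

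The members differed greatly in abundance. Per kilobase of gene model, HNRNPA1 was the most abundant in control cells at 223 CPM per kilobase, followed by HNRNPC at 101, HNRNPF at 96.6, HNRNPK at 87.6 and HNRNPAB at 83.6. The highest SR protein was SRSF9 at 59.0 CPM per kilobase, and SRRM3 was at 0.279. Summed over all 44 members, mRNA amounted to 4922, 5063 and 4945 CPM in EPZ5676 libraries and to 6146, 5619 and 5691 CPM in controls, so every EPZ5676 library lay below every control. The means were 4977 ± 75.3 and 5819 ± 286 CPM (SD, n = 3 each), a ratio of 0.86. HNRNP genes made up 83.0% of the control sum, SRSF genes 13.8% and SRRM genes 3.14%, and HNRNPA1 with HNRNPC alone made up 32.3%.

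Of the 36 tested members, 16 were lower and 1 was higher in EPZ5676 cells with edgeR's quasi-likelihood test (Benjamini-Hochberg adjusted over all genes, threshold 0.05). Among all genes tested, 18.7% were lower and 15.0% higher. The share of members that fell was 44.4%, and their median log2 fold change was -0.25, against -0.05 for all genes. The SRSF genes had 6 of 11 lower with a median of -0.39, the HNRNP genes 10 of 22 lower with a median of -0.25, and neither family had a member that rose. Of the 16 that fell, 15 had all 3 EPZ5676 libraries below all 3 controls. That ordering was seen in 17 members in all, against 24.2% of all genes, and the opposite ordering in 4 members (HNRNPAB, HNRNPA0, SRRM3 and SRSF9), against 21.8% of all genes.

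The replicates numbered 1 stood at the edges of most of these falls. Of the 16 members that fell, EPZ5676 replicate 1 was the lowest treated library in 13 and control replicate 1 the highest control in 15. Each of 9 stayed lower whichever single library was left out: SRSF3, SRSF11, HNRNPA1, HNRNPA2B1, HNRNPA3, HNRNPR, HNRNPH2, HNRNPDL and HNRNPU. Without control replicate 1, 10 members were lower, and without both replicates numbered 1, an alternative chosen after seeing the data, 8 of the 16 were.

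**Figure D1:**
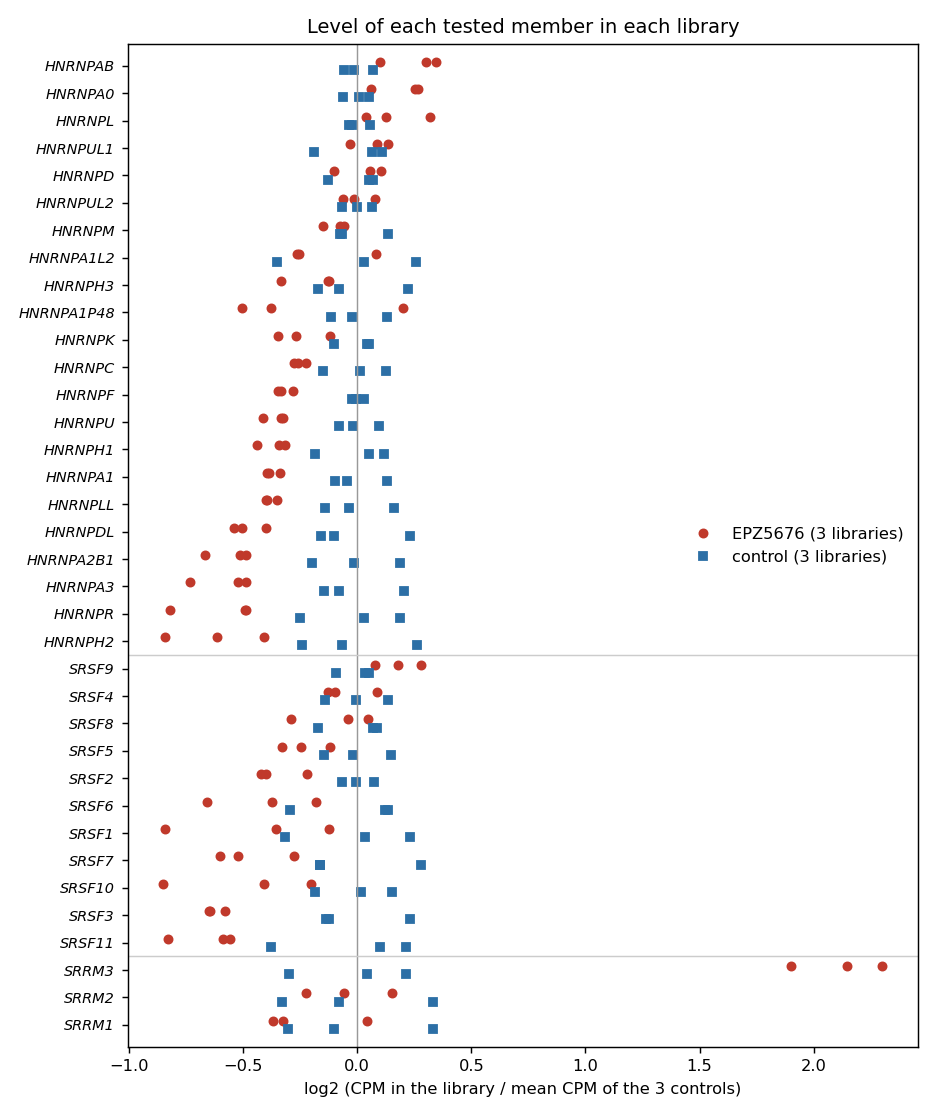
Level of the 36 tested members in each library, as log2 of CPM over the mean CPM of the 3 controls; circles are EPZ5676 libraries, squares control libraries, and horizontal lines part the HNRNP, SRSF and SRRM genes. The 3 EPZ5676 values of SRRM3 lie far to the right of its controls, and those of 17 members lie to the left of all 3 controls.

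Fold changes in these libraries followed the GC content of the transcripts, and the members are poor in GC. The longest transcripts of the tested members had a median GC content of 42.1%, against 49.4% for all genes tested, and 29 of the 36 lay below that overall median, including all 16 that fell. Across the 36 members, log2 fold change and GC content had a Pearson r of 0.74 and a Spearman rho of 0.59, or 0.57 and 0.56 without SRRM3. Across 15487 genes the values were 0.59 and 0.66. All points share the same 6 libraries, and the correlations are given as descriptions. Under 42% GC, 11 of 17 members fell with a median log2 fold change of -0.39, and 47.2% of the 3454 genes in that range fell with a median of -0.55. Between 42 and 50% GC, 5 of 13 members fell (median -0.20), and 24.2% of genes did (median -0.26). At 50% GC or above, 0 of 6 members fell and 1 rose (median 0.03), against 2.08% and 29.6% of genes (median 0.27).

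Each gene was therefore also tested after smooth trends in GC content and transcript length were removed from every library, a step called the correction from here on. It removes any effect of the inhibitor that follows GC content or length together with any technical trend, and which of these the uncorrected falls hold was not tested. After the correction, 1 member was lower and 5 were higher, against 5.57% and 5.41% of all genes, and the members' median log2 fold change was 0.07 (all genes, -0.0045). None of the 16 members that fell before was lower after it, and 7 of them had a corrected value above 0. SRRM3 alone was called in the same direction in both fits.

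**Figure D2:**
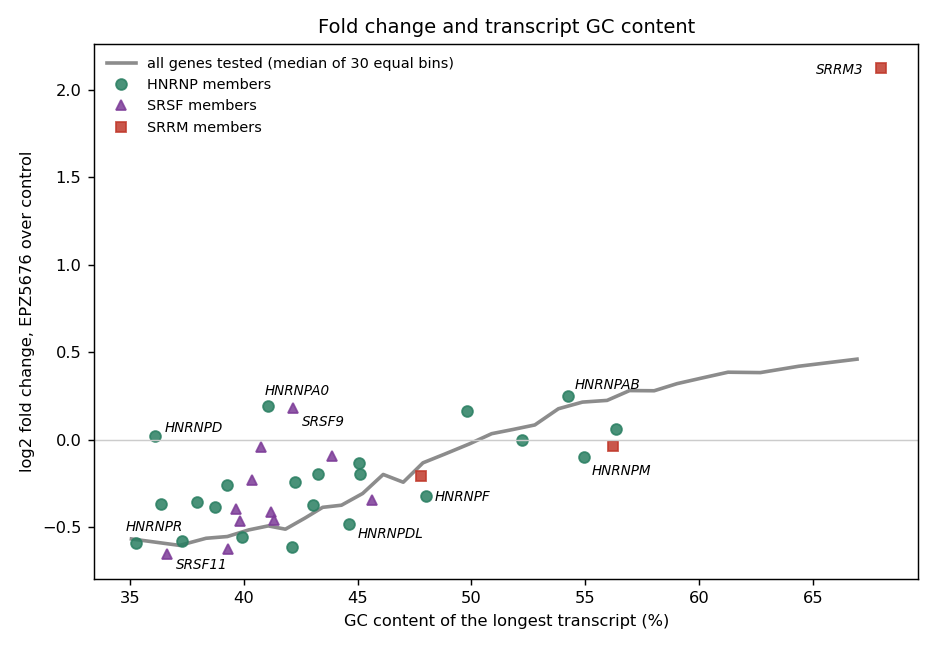
Log2 fold change (EPZ5676 over control, before the correction) against the GC content of the longest transcript, for the 36 tested members by family; the grey line joins the medians of all tested genes in 30 bins of equal size. Many members lie near the line. HNRNPA0, SRSF9, HNRNPD and SRSF4 are among those above it, and SRRM3, at 68.0% GC, lies far above it.

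Among the SR proteins, SRSF3, a small family member that also links splicing to mRNA export, had the smallest p of those that fell. SRSF3 (ENSG00000112081; chromosome 6, 36594353 to 36605600, GRCh38) was at 77.3, 77.0 and 80.9 CPM in EPZ5676 libraries and at 142, 111 and 110 CPM in controls. The 3 treated values lay within a few CPM of each other and below every control. The log2 fold change was -0.62 ± 0.11 (SE; edgeR adjusted p = 0.00045), a fall of 35.1%, and -0.09 after the correction (edgeR adjusted p = 0.585). SRSF7, its close relative, was at 47.1, 59.0 and 49.7 CPM in EPZ5676 libraries and 86.6, 63.8 and 63.8 CPM in controls. Its fall of -0.46 ± 0.13 on the log2 scale (edgeR adjusted p = 0.0094) was not past the threshold without control replicate 1 or without EPZ5676 replicate 1. Within each library, the SRSF3 to SRSF7 ratio overlapped between groups, at 1.64, 1.30 and 1.63 with EPZ5676 and 1.64, 1.74 and 1.72 in controls.

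SRSF11, a nuclear SR-like protein known as p54 that contacts spliceosome components, had the most negative estimate of all members. Its level was 18.6, 22.0 and 22.5 CPM in EPZ5676 libraries and 38.5, 25.5 and 35.5 CPM in controls. The groups did not overlap, although control replicate 2 came close to the treated values. The log2 fold change was -0.65 ± 0.15 (edgeR adjusted p = 0.0032) before the correction and -0.08 after it. SRSF10, a splicing repressor when dephosphorylated by heat shock or in mitosis, was at 20.7, 32.3 and 28.0 CPM in EPZ5676 libraries and 41.3, 32.8 and 37.6 CPM in controls. The second treated library of SRSF10 lay just under the lowest control, and its change of -0.46 ± 0.15 (edgeR adjusted p = 0.023) was lost without replicate 1 or 3 of either group.

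The other SR proteins changed less or did not pass. SRSF6, a regulator of exon inclusion in tau and in epidermal genes, fell by 0.39 ± 0.14 on the log2 scale (edgeR adjusted p = 0.034), the one fall with overlapping groups. SRSF2, also called SC35 and recurrently mutated in myeloid neoplasms, fell by 0.34 ± 0.13 (edgeR adjusted p = 0.040). Both calls were lost without replicate 1 or 3 of either group. SRSF1, the founding member of the family, was at 10.6, 14.8 and 17.4 CPM in EPZ5676 libraries and 22.3, 15.3 and 19.4 CPM in controls, with overlapping groups and a log2 value of -0.41 ± 0.19 (edgeR adjusted p = 0.092). Its count is uncertain, because 58.5% of the 50-base windows of its longest transcript also occur in the overlapping gene AC015813.2, which has 0 counts in all 6 libraries. SRSF5 (-0.23), SRSF8 (-0.09) and SRSF4 (-0.04) did not pass.

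SRSF9, a short SR protein related to SRSF1, was the SR protein with the highest level and did not follow the others. It was at 268, 250 and 233 CPM in EPZ5676 libraries and at 229, 226 and 207 CPM in controls, with every treated library above every control by a small margin. The log2 fold change was 0.18 ± 0.10 (edgeR adjusted p = 0.165) before the correction and 0.62 ± 0.09 (edgeR adjusted p = 0.00011) after it, a call kept whichever library was left out. The corrected rise depends on the transcript that supplies the base composition. The longest SRSF9 transcript is 42.1% GC and the longest coding one 52.3%, and with the coding transcripts, an alternative chosen after seeing the data, the corrected value was 0.12 (edgeR adjusted p = 0.324). SRSF5 showed the same dependence: its corrected value of 0.26 (edgeR adjusted p = 0.031) became -0.14 with coding transcripts, and the call was lost in 5 of the 6 fits that leave out a library. The corrected value of SRSF4, 0.44 (edgeR adjusted p = 0.170), became -0.11 (edgeR adjusted p = 0.462) with coding transcripts, past the threshold in neither.

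Of the A-type hnRNPs, which share a pair of RNA-recognition domains and a glycine-rich tail, HNRNPA1, HNRNPA2B1 and HNRNPA3 fell and HNRNPA0 did not. HNRNPA1, an abundant shuttling repressor of exon inclusion, was at 864, 900 and 869 CPM in EPZ5676 libraries and 1245, 1103 and 1064 CPM in controls. The groups did not overlap, and the log2 fold change was -0.37 ± 0.10 (edgeR adjusted p = 0.0075), or 0.02 after the correction. HNRNPA1 shares 28.8% of its 50-base windows with other genes, mainly with its processed copies. HNRNPA2B1, a reader of RNA methylation and a relative of HNRNPA1, was at 199, 225 and 221 CPM in EPZ5676 libraries and 360, 275 and 313 CPM in controls. Its fall of 31.9% (log2 fold change -0.55 ± 0.11, edgeR adjusted p = 0.00088) stood without both replicates numbered 1 (edgeR adjusted p = 0.0090) and was -0.04 after the correction. HNRNPA3, which binds telomeric as well as messenger sequence, was at 68.1, 80.7 and 78.8 CPM in EPZ5676 libraries and 130, 102 and 107 CPM in controls (log2 fold change -0.58 ± 0.11, edgeR adjusted p = 0.00091).

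HNRNPA0, an intronless member of the same subfamily that binds AU-rich elements, was at 221, 219 and 191 CPM in EPZ5676 libraries and at 176, 185 and 190 CPM in controls. The third treated library exceeded the highest control by only a little. The uncorrected change was 0.20 ± 0.10 (edgeR adjusted p = 0.131). After the correction it was 0.68 ± 0.12 (edgeR adjusted p = 0.0018), it was called in all 6 fits that leave out a library, and with coding transcripts it was 0.68 (edgeR adjusted p = 0.0026). HNRNPA0 and HNRNPA2B1 have similar GC contents, 41.1% and 39.9%. The ratio of HNRNPA0 to HNRNPA2B1 was 1.11, 0.969 and 0.866 in EPZ5676 libraries and 0.489, 0.671 and 0.608 in controls. The ratio of HNRNPA0 to HNRNPA1 was 0.256, 0.243 and 0.220 with EPZ5676 and 0.141, 0.167 and 0.179 in controls. Both ratios were higher in every EPZ5676 library than in any control. These pairs were chosen after their values were seen. An exact permutation test of the log2 ratios gave p = 0.1 for each. That is the smallest p that 3 against 3 libraries can give, so the test cannot decide whether the ratios differ.

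The D-type genes HNRNPD, HNRNPDL and HNRNPAB also differed among themselves. HNRNPD, also called AUF1 and known for the decay of AU-rich mRNAs, and HNRNPDL lie 48.1 kilobases apart on chromosome 4, both on the minus strand. HNRNPDL was at 62.1, 68.4 and 63.6 CPM in EPZ5676 libraries and at 106, 80.7 and 84.1 CPM in controls. It fell by 28.3% (log2 fold change -0.48 ± 0.11, edgeR adjusted p = 0.0035). HNRNPD averaged 121 ± 8.81 CPM in EPZ5676 libraries and 119 ± 8.82 CPM in controls (SD, n = 3 each), a log2 value of 0.02 ± 0.10. The HNRNPD to HNRNPDL ratio was 2.05, 1.62 and 1.94 with EPZ5676 and 1.02, 1.54 and 1.46 in controls, without overlap. HNRNPD has the lower GC content of the pair (36.1% against 44.6%), and its corrected value of 0.59 ± 0.13 (edgeR adjusted p = 0.0099) was not past the threshold without control replicate 3. HNRNPAB, a relative of HNRNPD, was at 227, 221 and 192 CPM in EPZ5676 libraries and 172, 188 and 177 CPM in controls, with no overlap and a log2 value of 0.25 ± 0.10 (edgeR adjusted p = 0.057). It passed with RLE or upper-quartile scaling, and its value after the correction was 0.09.

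**Figure D3:**
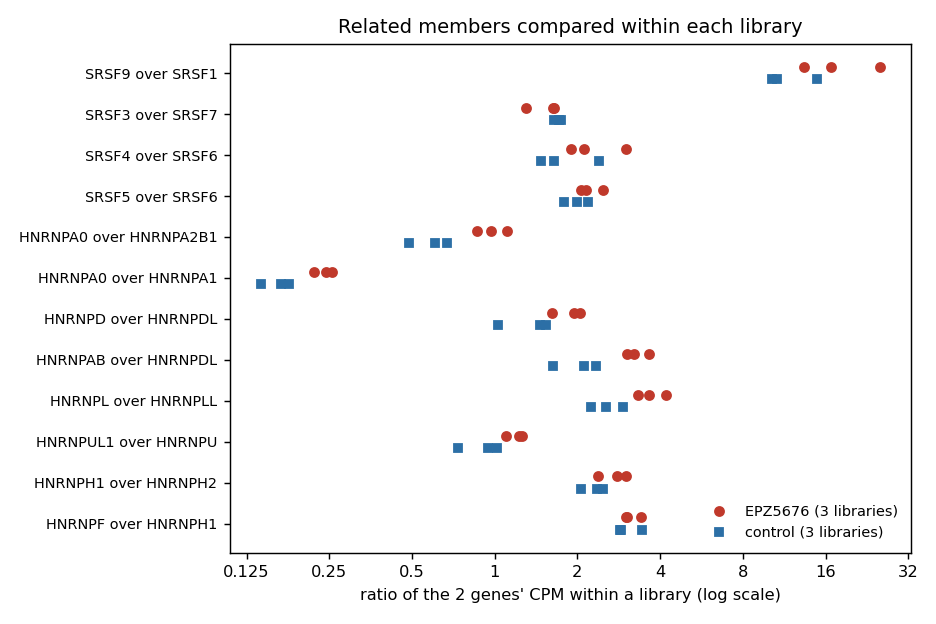
Ratio of CPM between 12 pairs of related members within each library, on a log2-spaced axis; circles are EPZ5676 libraries and squares control libraries. Ratios to HNRNPA2B1, HNRNPA1, HNRNPDL, HNRNPLL and HNRNPU with HNRNPA0, HNRNPD, HNRNPAB, HNRNPL or HNRNPUL1 on top lie to the right with EPZ5676, and the 4 SRSF pairs overlap. The CPM are uncorrected, and GC content differs in some of these pairs. It is 49.8% in HNRNPL and 38.7% in HNRNPLL, 56.3% in HNRNPUL1 and 37.9% in HNRNPU, and 54.2% in HNRNPAB and 44.6% in HNRNPDL. After the correction the log2 fold changes in these pairs were 0.19 and 0.16, -0.17 and 0.22, and 0.09 and -0.16.

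The F/H group binds runs of guanines and acts on exons from either side. HNRNPF was at 259, 250 and 247 CPM in EPZ5676 libraries and 321, 313 and 309 CPM in controls, with narrow ranges in both groups. Its log2 fold change was -0.32 ± 0.09 (edgeR adjusted p = 0.013) and its corrected value, -0.20 (edgeR adjusted p = 0.072), kept the sign. The uncorrected call was lost without EPZ5676 replicate 3 (edgeR adjusted p = 0.062). HNRNPH2, a paralogue on the X chromosome, was at 25.3, 29.6 and 34.2 CPM with EPZ5676 and 54.5, 38.4 and 43.4 CPM in controls (log2 fold change -0.61 ± 0.14, edgeR adjusted p = 0.0031). HNRNPH1 was at 76.0, 82.9 and 81.3 CPM with EPZ5676 and 112, 90.8 and 107 CPM in controls, a fall of 22.4% (edgeR adjusted p = 0.012) that was lost without control replicate 1 or 3 or without EPZ5676 replicate 1. Its longest transcript is 36.3% GC and its longest coding transcript 51.6%, and its corrected value was 0.20 (edgeR adjusted p = 0.110) with the first and -0.40 (edgeR adjusted p = 0.0038) with the second. HNRNPH3, a shorter relative, did not pass before the correction (-0.19 ± 0.12) or after it (0.19, edgeR adjusted p = 0.202), and was higher with coding transcripts (0.33, edgeR adjusted p = 0.016).

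HNRNPR, HNRNPU and HNRNPLL also fell. HNRNPR, a partner of the survival motor neuron protein, was at 53.3, 66.9 and 67.0 CPM in EPZ5676 libraries and 107, 79.0 and 95.9 CPM in controls (log2 fold change -0.59 ± 0.12, edgeR adjusted p = 0.0014). HNRNPU, a scaffold protein that ties RNA to chromatin, was at 181, 190 and 192 CPM with EPZ5676 and 257, 227 and 237 CPM in controls. Neither gene's groups overlapped, and the fall of HNRNPU was -0.36 ± 0.10 (edgeR adjusted p = 0.0078). After the correction the values were -0.02 for HNRNPR and 0.22 for HNRNPU. The HNRNPU relatives HNRNPUL1 (0.06 ± 0.10) and HNRNPUL2 (0.0012 ± 0.14) did not pass. HNRNPUL1 is 56.3% GC and HNRNPU 37.9%, and the corrected value of HNRNPUL1 was -0.17 (edgeR adjusted p = 0.162). The count of HNRNPUL2 is uncertain, because 45.2% of its 50-base windows also occur in the readthrough gene HNRNPUL2-BSCL2, which has 0 counts in all 6 libraries. HNRNPLL, the inducer of exon skipping in the leukocyte antigen CD45, was at 41.3, 41.2 and 42.6 CPM with EPZ5676 and 60.7, 49.3 and 53.1 CPM in controls (log2 fold change -0.38 ± 0.12, edgeR adjusted p = 0.015), whereas HNRNPL, which binds CA-rich sequence, had a value of 0.17 ± 0.10. The HNRNPLL call was lost without control replicate 1 (edgeR adjusted p = 0.076). HNRNPLL is 38.7% GC and HNRNPL 49.8%, and after the correction their values were 0.16 and 0.19.

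Several abundant hnRNPs did not pass. HNRNPC, which binds uridine tracts and keeps Alu-derived exons out of mRNA, was at 632, 610 and 618 CPM in EPZ5676 libraries and 807, 745 and 668 CPM in controls. HNRNPK, which binds cytosine-rich sequence, was at 352, 413 and 372 CPM with EPZ5676 and 461, 418 and 465 CPM in controls. Every EPZ5676 library of both genes was below every control, with log2 values of -0.26 ± 0.10 (edgeR adjusted p = 0.056) and -0.24 ± 0.10 (edgeR adjusted p = 0.068). HNRNPM, a binder of GU-rich sequence known from epithelial to mesenchymal splicing switches, was at 208, 196 and 206 CPM with EPZ5676 and 238, 206 and 207 CPM in controls. Its value was -0.10 ± 0.10 before the correction and -0.30 ± 0.08 (edgeR adjusted p = 0.023) after it, the single corrected fall, which was lost in 4 of the 6 fits that leave out a library. The retrocopies HNRNPA1P48 (-0.19 ± 0.20) and HNRNPA1L2 (-0.13 ± 0.43) share 49.2% and 58.5% of their windows with other genes, so their counts are uncertain.

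**Figure D4:**
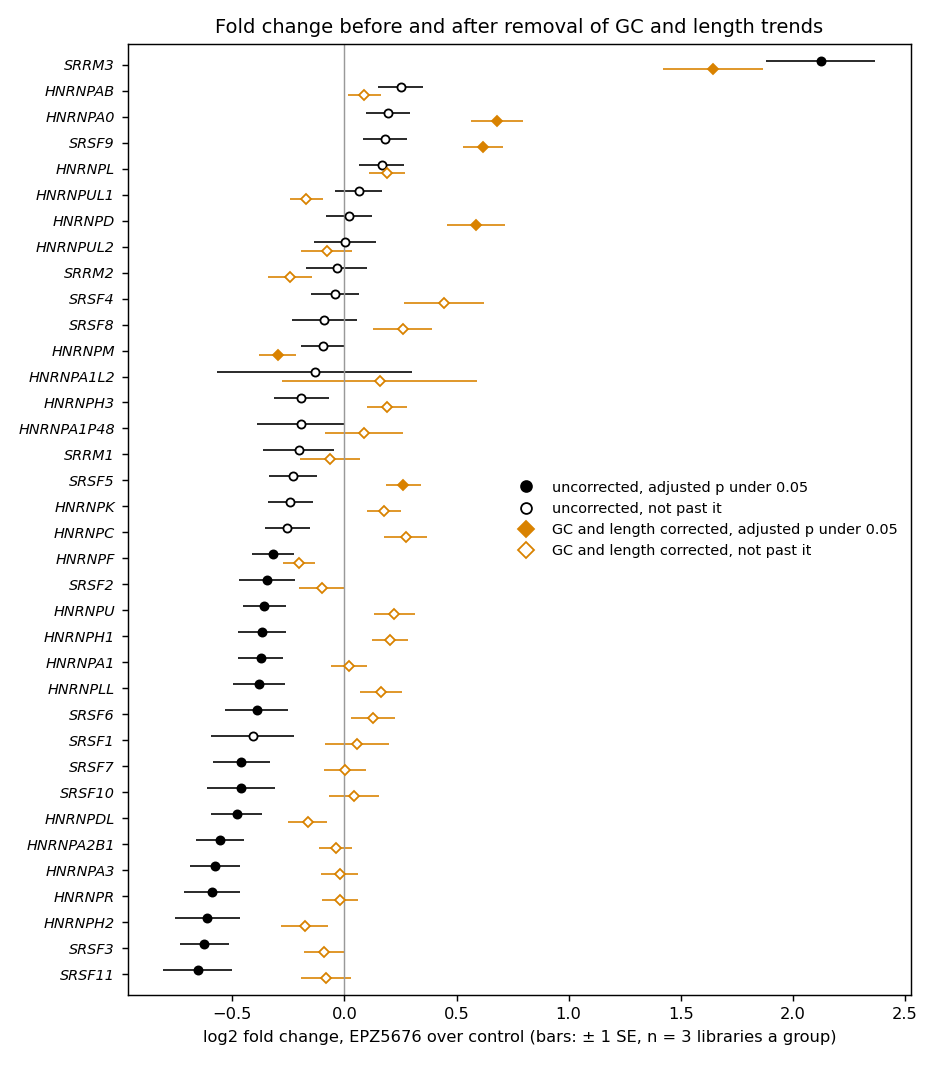
Log2 fold change (EPZ5676 over control) of the 36 tested members before (circles) and after (diamonds) the correction, with bars of 1 SE from edgeR and n = 3 libraries a group; filled symbols have an adjusted p under 0.05. The filled circles on the left have open diamonds near 0, and SRRM3 at the top is filled in both.

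SRRM3 was the 1 member that rose, and it did so strongly. SRRM3 (ENSG00000177679; chromosome 7, 76201900 to 76287288, plus strand, GRCh38) activates neuronal microexons and is expressed mainly in brain and endocrine cells. It was at 8.50, 9.46 and 7.16 CPM in EPZ5676 libraries (264, 332 and 283 reads) and at 1.56, 1.98 and 2.22 CPM in controls (62, 69 and 83 reads). The lowest treated value was more than any control by a wide margin. The log2 fold change was 2.12 ± 0.24 (edgeR adjusted p = 1.58e-05), a 4.36-fold difference. After the correction it was 1.64 ± 0.22 (edgeR adjusted p = 6.42e-05), a 3.13-fold difference. The call held in all 6 fits that leave out a library, before and after the correction, and without both replicates numbered 1 (edgeR adjusted p = 0.00015). At 1.22 CPM per kilobase in EPZ5676 libraries, SRRM3 was still among the least abundant tested members, between HNRNPA1L2 at 0.744 and SRSF11 at 2.49 CPM per kilobase.

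The closest relative of SRRM3 and most neuronal markers were too low to test. SRRM4, the better known microexon activator, had 0 counts in all 6 libraries. A limit of 3 counts, taken as an approximate upper bound for a count of 0, equals 0.075 to 0.097 CPM and covers counting error only. The 10 neuronal markers summed to 3.99 to 5.13 CPM in EPZ5676 libraries and 3.03 to 4.12 CPM in controls. Of them, ELAVL3, ELAVL4, NEUROD1 and STMN2 were at 0 in every library, and 8 were under 1 CPM in every library. The 2 that were tested, SYP (log2 value 0.63 ± 0.34) and TUBB3 (0.23 ± 0.34), did not pass (edgeR adjusted p = 0.153 and 0.646), and the part of neuronal cells or programmes in the SRRM3 result was not tested. SRRM2, which organises nuclear speckles, was at 141, 126 and 163 CPM with EPZ5676 and 117, 139 and 185 CPM in controls. SRRM1, an exon junction coactivator, was at 26.1, 27.0 and 34.8 CPM with EPZ5676 and 27.4, 31.5 and 42.5 CPM in controls. Both were highest in replicate 3 of either group, both overlapped between groups, and neither passed (log2 values -0.03 ± 0.14 and -0.20 ± 0.16).

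The 8 members that were not tested had few or no reads. SRRM5 had 6, 22 and 4 reads in EPZ5676 libraries and 3, 6 and 2 reads in controls, and it overlaps ZNF576 on the same strand. SRSF12 had 2 reads, all in EPZ5676 replicate 2, and HNRNPCL1 had 1 read, in EPZ5676 replicate 3. HNRNPCL2, HNRNPCL3, HNRNPCL4, the readthrough gene HNRNPUL2-BSCL2, of whose windows 98.8% occur in other genes, and SRRM4 had none. The HNRNPCL genes lie in a cluster on chromosome 1 and share 53.9 to 94.0% of their 50-base windows with other genes, so their counts are uncertain.

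Genes outside the rule were counted from companion lists of the splicing pathway. Of 24 tested SR-related partners, 11 were lower and 2 higher, with a median log2 fold change of -0.31. The splicing coactivator RBM39 (-0.70 ± 0.12, edgeR adjusted p = 0.00046), the U1-associated LUC7L3 (-0.80 ± 0.18, edgeR adjusted p = 0.0022), the speckle protein PNN (-0.79 ± 0.18) and SCAF11 (-0.65 ± 0.16) fell, and RNPS1 (0.17 ± 0.11) and ACIN1 (-0.14 ± 0.10) did not pass. After the correction 1 of the 24, ACIN1, was lower (-0.27, edgeR adjusted p = 0.047) and 1 was higher, and none of the 4 that are named as falling was called. A list of kinases that phosphorylate the arginine and serine tails and of nuclear importins held 11 tested genes. Of these, 6 were lower and 1 higher (median -0.45), and the cargo of each importin was not examined. The dual-specificity kinase CLK1 averaged 19.0 ± 4.01 CPM with EPZ5676 and 36.3 ± 5.66 CPM in controls (log2 fold change -0.93 ± 0.16, edgeR adjusted p = 0.00039), and the importin TNPO1 40.3 ± 5.89 and 78.3 ± 18.7 CPM (-0.96 ± 0.15, edgeR adjusted p = 0.00014; SD, n = 3 each). Both were also lower after the correction (CLK1 -0.38, edgeR adjusted p = 0.041; TNPO1 -0.37, edgeR adjusted p = 0.019). PRPF4B (-0.94 ± 0.21) and SRPK1 (-0.56 ± 0.13) fell before the correction only, and CLK3 and CLK2 did not pass.

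Other regulators and the spliceosome itself were counted in the same way. Of 30 other splicing regulators, 14 were lower and 2 higher (median -0.33). SYNCRIP (-0.66 ± 0.12), TIAL1 (-0.57 ± 0.13) and QKI (-0.67 ± 0.16) fell and RBM10 (0.45 ± 0.10) rose, while NONO and PTBP1 did not pass. After the correction 1 was lower and 3 higher, NONO among the higher (0.26, edgeR adjusted p = 0.036). SYNCRIP, TIAL1, QKI and RBM10 were not called after it. Of 18 genes of the U1 and U2 particles and of branch point recognition, 6 were higher and 4 lower (median 0.14). In that list SF3B1, the U2 subunit that clamps the branch point, averaged 63.6 ± 9.44 CPM with EPZ5676 and 119 ± 28.9 CPM in controls (SD, n = 3 each). It fell before the correction (-0.90 ± 0.14, edgeR adjusted p = 0.00021) and after it (-0.41, edgeR adjusted p = 0.0065). SNRPB2 (-0.78 ± 0.14) and SF3B6 (-0.54 ± 0.12) fell and SF3A2 (0.54 ± 0.14) rose before the correction, and SF3B2 (0.14 ± 0.10) and SF3B3 (0.13 ± 0.10) did not pass. After the correction 2 genes of the list were higher, SF3B2 among them (0.39, edgeR adjusted p = 0.0029), and 1, SF3B1, was lower. Of 15 Sm and LSm ring proteins, 4 were lower and 1 higher (median -0.12). SNRPD1 (-0.60 ± 0.13), LSM3 (-0.47 ± 0.11) and SNRPE (-0.38 ± 0.13) fell, and LSM2 (0.47 ± 0.11) rose, while LSM4 (0.19 ± 0.10) and SNRPD2 (0.14 ± 0.10) did not pass. After the correction 0 of the list were lower and 2 higher, LSM2 among them (0.33, edgeR adjusted p = 0.021).

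Of 26 genes of the tri-snRNP and the catalytic core, 8 were lower and 7 higher (median -0.01), among them the lower helicase DHX15 (-0.83 ± 0.16) and CWC15 (-0.55 ± 0.12) and the higher SART1 (0.52 ± 0.10) and XAB2 (0.48 ± 0.10). The helicase SNRNP200 (0.09 ± 0.10) and the core scaffold PRPF8 (0.18 ± 0.12) did not pass. After the correction 0 were lower and 3 higher, none of them among the 4 named as called before it. Of 15 genes of the exon junction complex and of nonsense-mediated decay, the route that removes poison-exon transcripts, 4 were lower and 3 higher (median -0.08). UPF3A (-0.66 ± 0.12), MAGOHB (-0.69 ± 0.17) and SMG1 (-0.52 ± 0.16) fell, SMG5 (0.52 ± 0.11) rose, and EIF4A3 (0.02 ± 0.10) and CASC3 (0.11 ± 0.10) did not pass. After the correction 0 were lower and 1, EIF4A3, was higher (0.26, edgeR adjusted p = 0.042). The counts of the lists before the correction stand beside 18.7% lower and 15.0% higher among all genes, those after it beside 5.57% and 5.41%, and whether any list departs from that background was not tested.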

How the data were processed

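RNA-seq counts of 6 SW1990 libraries were analysed. Per the labels' protocols, mRNA was enriched on oligo(dT), primed with random hexamers and strand-marked with dUTP. The submitters' processing notes name HISAT2 2.2.1 and GRCh38. How reads were counted, and whether by strand, is not given in the sources used. The authors deposited raw read counts per gene, with no normalization; the coordinates of all 58735 genes are those of GENCODE 29.

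The test was that of edgeR 4.0.16 under R 4.3.3 (filterByExpr with a minimum count of 10, TMM scaling, the robust two-sided quasi-likelihood test, Benjamini-Hochberg adjustment over 15496 genes, threshold 0.05). The common dispersion was 0.0301. A standard error is the log2 fold change over the square root of F, and CPM use TMM-scaled totals. The correction fitted a natural spline with 5 degrees of freedom in GC content and in log length of the longest transcript to each library and entered it as an offset. The script was tested on simulated data. Alternatives were other scalings and filters, DESeq2 1.42.0, limma-voom (limma 3.58.1), a fit of protein-coding genes alone, the replicate number as a block, and leaving out each library in turn. Leaving out both replicates numbered 1 and taking GC from coding transcripts were added after seeing the data.

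The members and the gene lists were chosen with earlier results of these data known. Values per library are given for at most 14 members past the threshold in each direction by smallest p, for the SRRM members and for the 5 most abundant members per kilobase that did not pass; of each companion list, up to 4 called genes with the smallest p and the 2 most abundant that did not pass are named. HNRNPA0, HNRNPD, HNRNPL, HNRNPUL1, SRSF1, SRSF4 and SRSF5 were described further after their values were seen. Shared sequence is the share of exact 50-base windows of a gene's longest transcript found in another gene's transcript. Python 3.11.15 with matplotlib 3.10.9 drew the figures.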

Additional observations from a re-analysis of the deposited data

How the results depend on the processing

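Without the correction, 16 members were lower and 1 was higher. The members called higher numbered 2 with RLE scaling, upper-quartile scaling, the stricter filter, DESeq2, protein-coding genes alone or the length correction, and 5 with the GC correction alone or with GC and length; the added gene was HNRNPA0 with the length correction and HNRNPAB in the other fits with 2. The members called lower numbered 11 with the length correction, 1 with the GC correction alone or with GC and length, and 8 without both replicates numbered 1. Leaving out 1 library gave 1 to 2 higher and 10 to 18 lower, with the lowest count without control replicate 1. After the correction, 5 members were higher and 1 lower; leaving out 1 library gave 3 to 7 higher and 0 to 1 lower, leaving out both replicates numbered 1 gave 3 and 0, and coding transcripts gave 4 and 2. Libraries with the same replicate number shared little deviation from their group means (correlations -0.111, -0.093 and 0.047), and whether the samples were paired is not stated in the labels. With the replicate block, 1 member was higher and 13 lower, and with the block and the correction 4 and 1.

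Over all genes, 2326 were higher and 2899 lower. The counts were 838 and 863 with the GC and length correction, 763 and 730 with GC alone, and 1105 and 1328 without both replicates numbered 1; leaving out 1 library gave 1350 to 2780 higher and 1753 to 3167 lower. After the correction, leaving out 1 library gave 397 to 854 higher and 512 to 814 lower, and leaving out both replicates numbered 1 gave 321 and 431.

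After the GC and length correction, and after GC alone, 8 members with a call in either fit turned from negative to positive log2 fold changes: HNRNPA1 (0.021 and 0.023), HNRNPH1 (0.20 and 0.21), HNRNPU (0.22 and 0.20), HNRNPLL (0.16 and 0.16), SRSF5 (0.26 and 0.27), SRSF7 (0.0043 and 0.013), SRSF6 (0.13 and 0.13) and SRSF10 (0.043 and 0.046). With coding transcripts the corrected values of HNRNPH1 and SRSF5 turned to -0.40 and -0.14. The correction left the SR-related partners with 1 higher and 1 lower, the kinases and importins with 0 and 2, the other regulators with 3 and 1, the U1 and U2 list with 2 and 1, the Sm and LSm list with 2 and 0, the tri-snRNP list with 3 and 0, and the exon junction list with 1 and 0. The cause was not tested.

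Reads that overlap genes on opposite strands could not be told apart if counting ignored strand, which touches HNRNPA2B1 (CBX3), SRSF9 (GATC), HNRNPAB (PHYKPL), SRRM2 (ELOB), HNRNPUL1 (TGFB1), HNRNPH3 (RUFY2) and SRSF2 (MFSD11). Splice isoforms and protein were not measured.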
